A study of Homo sapiens with 7 samples.

Results

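Zinc finger genes whose symbol is ZNF followed by a number form long arrays on human chromosome 19, and this account describes where the transcription factor Myc was found at them in HT29 cells, an established human colon adenocarcinoma line. The members were chosen by their annotation alone: all protein-coding genes of chromosome 19 in the RefSeq table whose symbol begins with ZNF and a digit. There were 250 such genes, beside 1201 other protein-coding genes of the chromosome and among 20037 in the whole table. By CUT&RUN the series profiled Myc in 3 libraries, IgG in 3 and input DNA in 1. CUT&RUN is a method in which an antibody guides a nuclease to the sites of a protein in permeable cells. The libraries all came from HT29 cells given oleic acid, a fatty acid with a single double bond, for 6 h while serum was withheld, and cells without oleic acid were not analysed here. The labels name the Myc antibody for the IgG libraries too, and the titles were followed. The authors' single peak list gives 1 value per peak and none per library, so replicates could not be compared and no test over samples could be run. The list holds no expression values, so the cell line was not checked against markers.

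Most ZNF proteins of chromosome 19 pair an array of zinc fingers, which read DNA, with a KRAB domain, which recruits the corepressor TRIM28 and through it the histone methyltransferase SETDB1. Many of them bind and silence transposable elements, and the genes themselves spread by repeated duplication of neighbours, so that members of an array resemble each other. Their gene bodies are known to carry heterochromatin marks in many cell types. Myc, with its partner MAX, binds the E-box CACGTG and is widely found at active promoters rich in CpG dinucleotides.

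The 10 start sites printed here were picked for the E-box, for likeness within an array and for CpG content, features that are described below. RefSeq promoters (GRCh38.p14, 250 bases before to 50 after an annotated start) were at hand for 219 of the 250 genes, with 271 starts in all. The first 5 sequences are all the member starts that hold both CACGTG and CCGGAA, the core of ETS factor sites, and had a Myc summit within 250 bp. They are written 5′ to 3′, with CACGTG and CCGGAA (either strand) in capitals. All 5 lie in the last array of the long arm.
ZNF460, chr19:57279732-57280031, plus strand: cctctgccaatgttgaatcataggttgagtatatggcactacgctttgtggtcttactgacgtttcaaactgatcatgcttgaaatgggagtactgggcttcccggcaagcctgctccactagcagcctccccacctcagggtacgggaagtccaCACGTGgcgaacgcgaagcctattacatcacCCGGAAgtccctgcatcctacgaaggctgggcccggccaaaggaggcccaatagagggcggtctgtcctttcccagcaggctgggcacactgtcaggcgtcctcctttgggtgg
ZNF587B, chr19:57830049-57830348, plus strand: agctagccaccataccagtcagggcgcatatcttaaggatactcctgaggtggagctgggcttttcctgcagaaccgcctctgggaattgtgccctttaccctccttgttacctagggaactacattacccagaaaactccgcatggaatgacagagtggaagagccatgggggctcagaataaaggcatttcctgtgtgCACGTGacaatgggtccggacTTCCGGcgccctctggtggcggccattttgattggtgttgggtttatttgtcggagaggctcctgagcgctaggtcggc
ZNF587, chr19:57849609-57849908, plus strand: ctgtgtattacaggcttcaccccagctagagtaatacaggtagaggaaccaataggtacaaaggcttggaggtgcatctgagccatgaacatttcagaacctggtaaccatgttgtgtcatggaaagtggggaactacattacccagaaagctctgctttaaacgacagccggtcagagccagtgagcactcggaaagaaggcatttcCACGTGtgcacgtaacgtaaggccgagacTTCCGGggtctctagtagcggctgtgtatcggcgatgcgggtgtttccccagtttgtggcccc
ZNF814, chr19:57888988-57889287, minus strand: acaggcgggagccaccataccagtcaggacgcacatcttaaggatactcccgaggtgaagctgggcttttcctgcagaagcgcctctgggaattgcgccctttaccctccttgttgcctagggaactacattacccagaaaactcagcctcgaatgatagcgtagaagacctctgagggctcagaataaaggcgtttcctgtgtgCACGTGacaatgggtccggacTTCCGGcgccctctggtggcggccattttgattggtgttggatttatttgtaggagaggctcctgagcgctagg
ZNF324, chr19:58466830-58467129, plus strand: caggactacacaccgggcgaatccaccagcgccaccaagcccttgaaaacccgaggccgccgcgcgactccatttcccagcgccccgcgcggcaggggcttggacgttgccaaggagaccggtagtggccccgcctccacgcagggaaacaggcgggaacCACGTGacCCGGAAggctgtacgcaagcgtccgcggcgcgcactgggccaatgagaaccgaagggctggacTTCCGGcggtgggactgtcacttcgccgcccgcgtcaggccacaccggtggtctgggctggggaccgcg

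The next 4 sequences come from the array on the short arm side of the centromere, where few members had a peak. ZNF714 and ZNF431 are the most similar pair there with a summit, and ZNF90 and ZNF486 are a pair without one that, level with ZNF626 and ZNF486, had the highest identity there. The last, ZNF567, is the start with the most CpG among those without a summit in the array between 36.18 and 37.78 Mb. Capitals mark the same 2 motifs.
ZNF714, chr19:21081953-21082252, plus strand: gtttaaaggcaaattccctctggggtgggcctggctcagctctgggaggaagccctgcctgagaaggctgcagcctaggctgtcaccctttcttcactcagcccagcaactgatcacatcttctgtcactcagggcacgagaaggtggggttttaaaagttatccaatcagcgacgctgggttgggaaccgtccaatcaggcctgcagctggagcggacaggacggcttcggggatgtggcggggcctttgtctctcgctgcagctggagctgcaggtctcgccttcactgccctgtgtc
ZNF431, chr19:21141790-21142089, plus strand: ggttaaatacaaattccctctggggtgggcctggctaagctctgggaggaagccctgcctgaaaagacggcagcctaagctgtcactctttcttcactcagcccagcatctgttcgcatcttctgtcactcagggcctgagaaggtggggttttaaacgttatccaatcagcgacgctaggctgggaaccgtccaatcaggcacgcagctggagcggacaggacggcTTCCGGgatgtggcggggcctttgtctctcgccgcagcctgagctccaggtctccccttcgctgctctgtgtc
ZNF90, chr19:20077750-20078049, plus strand: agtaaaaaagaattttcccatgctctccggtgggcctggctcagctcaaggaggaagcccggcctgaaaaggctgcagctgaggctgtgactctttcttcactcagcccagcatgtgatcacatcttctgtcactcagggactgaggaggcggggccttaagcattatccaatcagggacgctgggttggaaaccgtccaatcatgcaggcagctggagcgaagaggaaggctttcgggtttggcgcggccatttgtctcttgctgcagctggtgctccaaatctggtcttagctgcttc
ZNF486, chr19:20166964-20167263, plus strand: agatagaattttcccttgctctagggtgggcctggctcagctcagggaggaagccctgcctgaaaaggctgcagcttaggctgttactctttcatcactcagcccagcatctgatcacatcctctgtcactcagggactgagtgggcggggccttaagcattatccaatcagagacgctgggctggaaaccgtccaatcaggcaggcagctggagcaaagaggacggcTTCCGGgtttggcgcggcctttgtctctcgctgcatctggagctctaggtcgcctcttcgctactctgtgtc
ZNF567, chr19:36687362-36687661, plus strand: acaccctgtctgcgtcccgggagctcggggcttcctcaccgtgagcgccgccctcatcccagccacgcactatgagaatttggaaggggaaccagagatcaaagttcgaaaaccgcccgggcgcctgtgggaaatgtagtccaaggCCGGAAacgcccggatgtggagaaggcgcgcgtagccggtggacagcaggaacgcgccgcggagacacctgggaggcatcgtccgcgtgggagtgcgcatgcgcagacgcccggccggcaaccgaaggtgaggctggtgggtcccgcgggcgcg

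Myc summits lay near the ends of about as many ZNF genes as not. A gene was counted when a summit lay within 1 kb of its lower or higher annotated coordinate, and such a summit is called an end peak. By this rule 124 of the 250 genes had an end peak (49.6%, Wilson 95% interval 43.5 to 55.8). The share over all protein-coding genes was 56.4%, that of the other 1201 genes of chromosome 19 was 56.3% (53.5 to 59.1), and that of the 267 ZNF genes on other chromosomes was 72.3% (66.6 to 77.3). The interval of the chromosome 19 ZNF genes thus lay below that of ZNF genes elsewhere and overlapped that of their chromosome neighbours. These intervals treat genes as independent, which neighbours that share peaks and ancestry are not, and no test of the differences was run. The order against all genes turned under some settings: with a window of 500 bp the share was 48.4% of members against 47.9% of all genes, and once the strongest 1% and peaks over 2 kb wide were dropped it was 43.6% against 41.4%. The 124 genes drew on 119 distinct peaks, since 10 genes shared a peak with another member: ZNF559 with the readthrough gene ZNF559-ZNF177, ZNF816 with ZNF816-ZNF321P, ZNF765 with ZNF765-ZNF761, ZNF490 with ZNF791, and ZNF324 with ZNF446.

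The peaks at member ends were mostly moderate. The authors' fold enrichment, the Myc pileup over the local control level at the summit, had a median of 6.50 over the 124 genes, with quartiles of 5.17 and 9.66. The median was 7.42 for the other genes of chromosome 19 with an end peak and 7.86 over all genes with one. In 29 members the fold was 10 or more, in 78 it lay between 4 and 10, and in 17 it was under 4. Pileups, the number of fragments that overlap a summit, ranged from 17 to 238 with a median of 48, and the median control level was 6.50. The smallest pileup anywhere in the list was 14, so weaker sites would not have been listed at this depth.

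A few members stood far above the rest. ZNF460, in the last array of the long arm (57279982 to 57294069), had the highest fold, 34.0 (29.7 to 38.7), with 227 overlapping fragments where the control had 5.71. Each range in brackets after a fold is a 95% interval, taken from the exact Poisson limits of its pileup while the control stays as given. It covers counting error only. ZNF146, which encodes a protein made almost wholly of zinc fingers with no KRAB domain, followed with 31.9 (28.0 to 36.2) from a pileup of 238. The intervals of these 2 genes overlapped. ZNF628 had 23.7 (20.3 to 27.5), ZNF587 had 20.8 (18.0 to 23.9) and ZNF181 had 20.1 (17.1 to 23.6), and the intervals of these 3 lay below that of ZNF146. ZNF507 reached 17.4, ZNF497 16.2, ZNF888 15, ZNF837 14.4 and ZNF428 13.9. At none of these 10 genes did the end with the peak have a neighbouring protein-coding gene's end inside 1 kb. ZNF524, with a fold of 21.6, was left out of them because its end is shared with FIZ1. The weakest end peak of a member, at ZNF627, had a fold of 2.5.

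**Figure D1:**
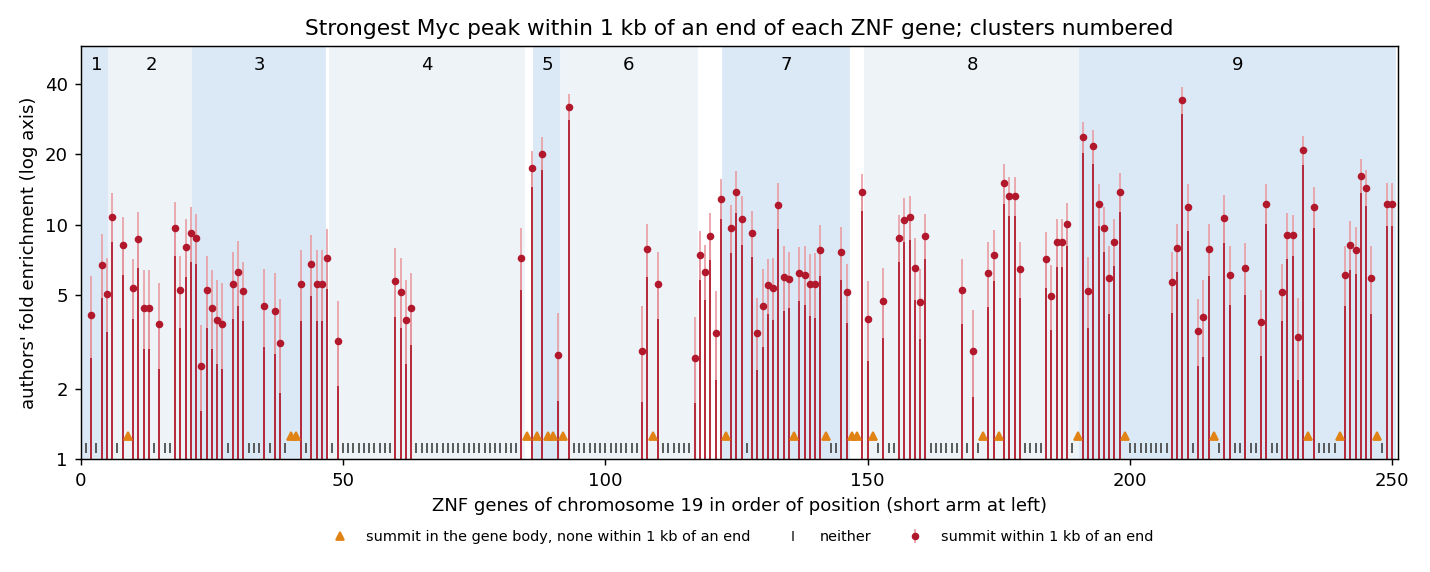
Fold enrichment of the strongest Myc peak within 1 kb of an end for each of the 250 ZNF genes, in order along chromosome 19 (x axis, gene number; y axis, authors' fold on a log axis). Points carry exact Poisson 95% intervals, triangles are genes with a summit in the body only, ticks are genes with neither, and shaded bands are the 9 clusters; ticks fill most of clusters 4 and 6.

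Along the chromosome the members were divided wherever more than 1 Mb separated them, which gave 9 clusters of 5 or more genes, numbered from the short arm end, and 11 members outside them. Clusters 4 and 6 had the lowest shares, and they were set apart after these values were seen. Cluster 4, from 19.67 to 24.13 Mb, had 6 of 37 genes (16.2%, 7.65 to 31.1), and cluster 6, from 36.18 to 37.78 Mb, had 5 of 26 (19.2%, 8.51 to 37.9). The other 7 clusters together had 105 of 176 (59.7%, 52.3 to 66.6), against 11 of 63 in clusters 4 and 6 (17.5%, 10.0 to 28.6). These intervals did not overlap, but that was largely fixed by the choice, and genes of a cluster are not independent. Cluster 7, from 43.53 to 45.08 Mb, had the highest share, 18 of 24 (75%, 55.1 to 88.0).

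The remaining clusters lay between. Cluster 2, from 7.07 to 9.79 Mb, had 11 of 16 genes (68.8%), cluster 3, from 11.48 to 12.63 Mb, had 16 of 25 (64.0%), and cluster 1, from 2.82 to 2.94 Mb, had 3 of 5 (60.0%). Cluster 9, the largest, from 55.48 to 58.49 Mb, had 34 of 60 (56.7%), cluster 8, from 51.57 to 53.58 Mb, had 21 of 41 (51.2%), and cluster 5, from 34.68 to 34.96 Mb, had 2 of 5 (40%). The intervals of all of these overlapped one another and that of cluster 7. The intervals of clusters 1, 5 and 8 also overlapped that of cluster 6, and those of clusters 1 and 5 that of cluster 4. Of the 11 members outside clusters, 8 had an end peak (72.7%, 43.4 to 90.3).

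**Figure D2:**
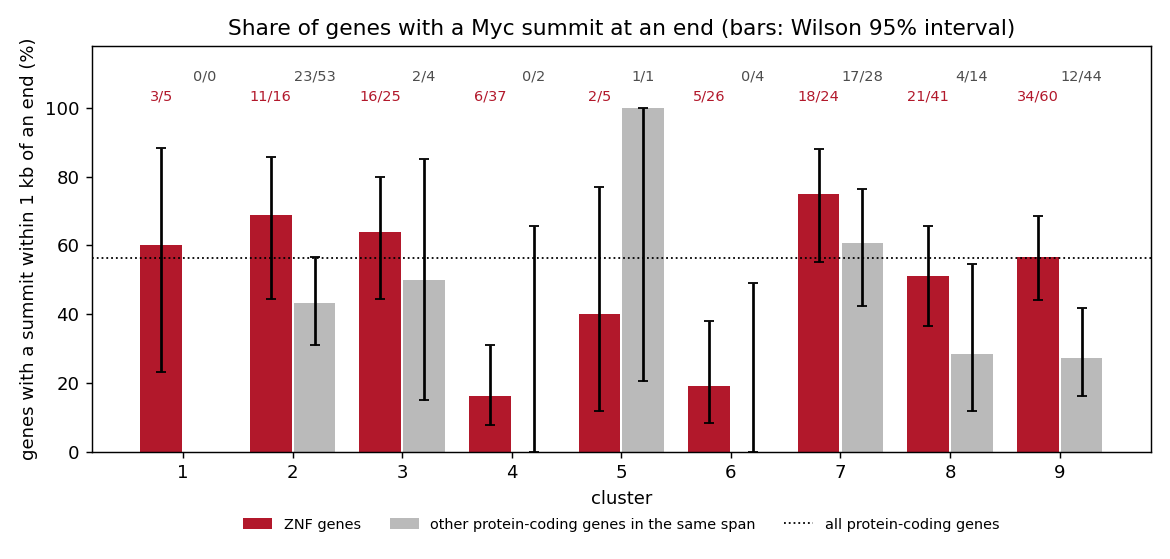
Share of genes with a Myc summit within 1 kb of an end (y axis, %) in each cluster (x axis), for ZNF genes (left bars) and for the other protein-coding genes in the same span (right bars), with Wilson 95% intervals and counts above; the dotted line is the share over all protein-coding genes, 56.4%. Clusters 4 and 6 have the lowest ZNF bars, 16.2% and 19.2%.

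In cluster 4 the peaks that were present fell into a short run. ZNF430, ZNF714, ZNF431 and ZNF708 are consecutive members, between 21020657 and 21329410, and all 4 had a summit within 200 bp of their 5′ end. Their folds were 5.74 (4.03 to 7.96), 5.18 (3.61 to 7.21), 3.94 (2.56 to 5.83) and 4.43 (3.06 to 6.23), with overlapping intervals. On the centromere side of ZNF708 no summit was listed over 2.70 Mb, up to ZNF254, the last gene of the cluster, with 7.22 (5.27 to 9.67). That gap held 20 members, from ZNF738 to ZNF726, none with a summit at an end or in the body. ZNF91, which is known to silence SVA retrotransposons in human cells, lies in it, and its nearest summit was 638104 bp away. On the other side, the 10 members from ZNF506 to ZNF85 had no summit either over 1.16 Mb. That run holds ZNF93, known to silence a family of LINE elements, whose nearest summit was 124724 bp away. The remaining end peak of the cluster was at ZNF14, with a fold of 3.19 (2.05 to 4.75). The whole cluster held 7 summits in 4.46 Mb, or 1.57 per Mb, and 6 of them lay within 1 kb of a member's end.

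Cluster 6 joined one of the strongest sites of the family to a long stretch without any. At its start ZNF146 had the fold of 31.9 given above. From just beyond ZNF146 and ZNF565 to ZNF585B no summit was listed over 0.963 Mb, which held 14 members: 13 consecutive genes without an end peak from ZNF566 to ZNF585A, ZNF567 among them, and ZNF585B itself. ZNF585B had a fold of 2.89 (1.75 to 4.52), ZNF383 of 7.85 (6.01 to 10.1), ZNF527 of 5.57 (3.95 to 7.66) and ZNF573 of 2.70 (1.73 to 4.02). The cluster held 6 summits in all, or 3.76 per Mb. Density elsewhere was higher, between 17.7 per Mb in cluster 2 and 78.3 per Mb in cluster 7. The 9 spans together had 20.9 summits per Mb, against 47.6 per Mb on the rest of chromosome 19.

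Protein-coding genes with other symbols in the same spans had summits at 59 of 150 (39.3%, 31.9 to 47.3), against 617 of 1051 (58.7%, 55.7 to 61.6) for the other genes of chromosome 19 outside the spans. In cluster 4 neither of 2 such genes had one, and in cluster 6 none of 4, which allows shares of up to 65.8% and 49.0% at the upper Wilson limit. Those of cluster 6 were LOC124904708 and the zinc finger genes ZFP14, ZFP82 and ZFP30, so they say little about other kinds of gene there. Zinc finger genes under other symbols (ZFP, ZSCAN, ZIK and ZIM) had an end peak in 2 of 14, at ZSCAN22 (17) and ZSCAN4 (3.62). Genes of olfactory and vomeronasal receptors and of the NLRP family had none in 17, which allows up to 18.4%. The other 119 genes had 57 (47.9%, 39.1 to 56.8). A position without a peak has no value in the list, so the Myc level there is unknown.

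In clusters with many called genes the fold was mostly moderate. The 18 genes of cluster 7 ran from 3.47 at ZNF221 to 13.9 at ZNF428 (11.2 to 16.9), with ZNF223 at 12.1 and ZNF283 at 10.5, and their median was 6.04. Cluster 3 had a median of 5.24 and no value above the 8.76 (6.83 to 11.1) of ZNF653, whose peak also lay near an end of ECSIT. In cluster 2 the median was 8.04 and the top value 10.8 (8.42 to 13.7), at ZNF557. ZNF57 led cluster 1 with 6.73 (4.85 to 9.10). Cluster 8 had a median of 7.45, led by ZNF888 at 15 (12.3 to 18.2). Cluster 9 had the highest median of the clusters with more than 2 called genes, 8.75, and ran from 3.31 at ZNF587B to 34.0 at ZNF460. There ZNF274, whose protein is known to bind the 3′ ends of ZNF genes and recruit SETDB1, had a fold of 6.09 (4.48 to 8.11). ZNF304, reported to direct gene silencing in colorectal cancer cells and picked here after its value was seen, had no end peak, and its nearest summit was 3277 bp away.

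Where strand was known, the peaks stood at the 5′ end. Of the 219 members with strand in the promoter table, 109 had a summit within 1 kb of the 5′ end (49.8%) and 3 within 1 kb of the 3′ end (1.37%). Over all protein-coding genes with strand the shares were 56.5% and 8.34%, and over the other genes of chromosome 19 they were 53.7% and 16.4%. ZNF genes elsewhere had 72.5% and 5.96%, and the remaining genes of other chromosomes had 56.5% and 7.94%. The 3 members with a 3′ summit, ZNF628, ZNF580 and ZNF324, all lie in cluster 9. ZNF628 and ZNF324 had summits at both ends, and were the only 2 of the 250 members that did (0.8%). The share was 5.4% over all genes, 9.66% over the other genes of chromosome 19, 3.37% over ZNF genes elsewhere and 5.21% over the remaining genes elsewhere. The strongest summits lay a median of 156 bp from the 5′ end, 76 of 108 on the transcribed side and 32 upstream, and 83 within 250 bp (76.9%). By bins of 100 bp, 23.3% of members had a summit between 100 and 200 bp downstream, against 13.5% of the other genes of the chromosome. A smaller mode, 7.31% of members against 6.63% of other genes, lay 200 to 300 bp upstream, and the 100 bp just before the start held a summit in 0.457% of members against 1.14% of other genes.

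**Figure D3:**
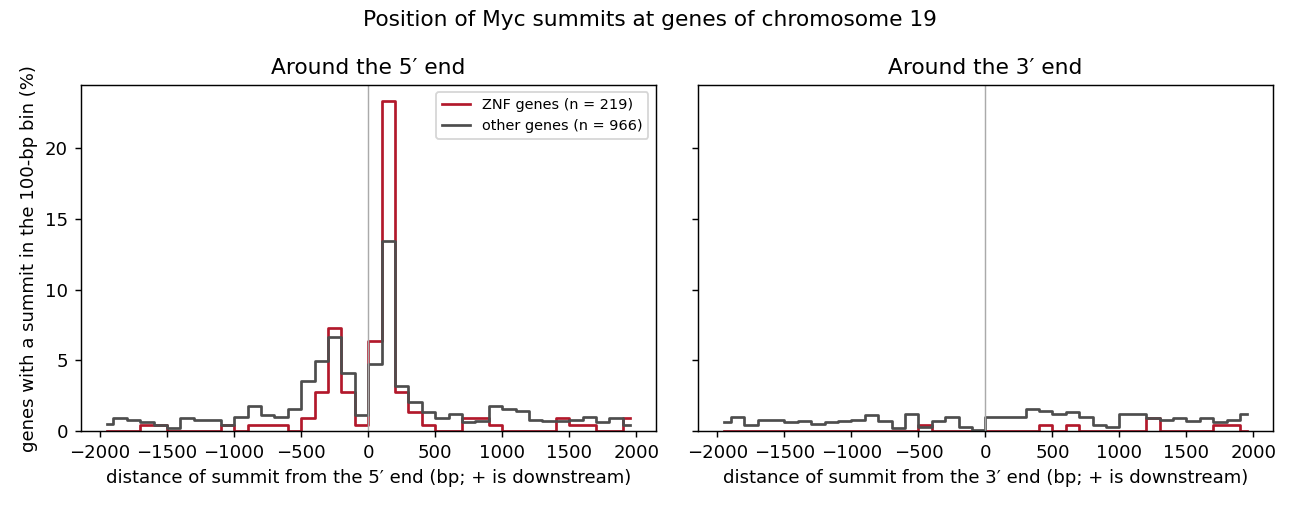
Percentage of genes with a Myc summit in each 100-bp bin (y axis) by distance from the 5′ end (left) and the 3′ end (right), in bp with downstream positive, for the 219 ZNF genes of chromosome 19 with strand and the 966 other genes of the chromosome. The ZNF line peaks at 23.3% between 100 and 200 bp downstream of the 5′ end and is near 0 around the 3′ end.

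Summits inside ZNF genes were few. A summit anywhere in the gene was found in 116 members (46.4%, 40.3 to 52.6), against 57.5% of all genes, 64.0% of ZNF genes elsewhere and 54.6% of the other genes of chromosome 19, and most of these were the 5′ peaks just described. Over 1 kb from both ends, 38 members had one (15.2%, 11.3 to 20.2), against 36.3% of all genes, 35.8% of the other genes of the chromosome and 25.8% of ZNF genes elsewhere. Per 100 kb of gene, that was 0.788 interior summits in members, 3.84 in other genes of chromosome 19, 1.08 in ZNF genes elsewhere and 1.57 over all genes, although the median member was longer, at 23254.5 bp, than the median neighbour on the chromosome, at 12694 bp. Cluster 4 had none in 1.52 Mb of gene sequence, and cluster 9 had 18 in 0.966 Mb (1.86 per 100 kb).

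Many of the interior summits stood at other starts. Of 58, 8 stood at the end of a different protein-coding gene (1 kb or less), 20 of the rest at another annotated start of the same gene, 5 of those left at a start of another RefSeq gene and 25 at none of these. Of the first 8, those in ZNF558, ZNF302, ZNF565 and ZNF581 also lay at another start of their own gene. The median fold was 3.95 for the last set and 6.96 for those at another start of the same gene. The strongest, with a fold of 31.9, lies inside ZNF565 and is the peak of ZNF146. ZNF331, known as an imprinted gene, had 23.3 (19.7 to 27.4) at an inner start, with the summit 34510 bp from the 5′ end of the gene. ZNF749 had 21.7 (18.8 to 24.8), ZNF574 18.1 (14.9 to 21.7) and ZNF558 15.4 (12.5 to 18.8), the last also near an end of MBD3L1. Of these 5 genes only ZNF574 had an end peak, with a fold of 3.45 (2.17 to 5.23). With each gene split by length into 4 equal stretches from its 5′ end, the 53 interior summits of members with strand fell 13, 23, 12 and 5 to a stretch. The fewest were in the last stretch, but the same split was not made for other genes.

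The members without an end peak were often far from any site. Of 126 such genes, 23 had a summit in the body and 103 had none there either. The nearest summit lay a median of 53274 bp from a gene end, and over 50 kb away for 64 of them (50.8%), against 12.2% of the 525 other genes of chromosome 19 without an end peak. By cluster the median was 390992 bp in cluster 4 and 197601 bp in cluster 6, and between 3276 and 26662.5 bp in the other clusters. The longest members with no summit at an end or inside were ZNF420 (122467 bp) and ZNF568 (81601 bp) in cluster 6 and ZNF91 (90468 bp), ZNF676 (81216 bp) and ZNF730 (72011 bp) in cluster 4, at 80294, 212730, 638104, 849860 and 886354 bp from the nearest summit. Near the 1 kb limit, the summits of ZNF296 (795 bp, fold 5.15) and ZNF44 (706 bp, fold 3.12) fell just inside, and those of ZNF114 (1099 bp, fold 5.42) and ZNF701 (1251 bp, fold 3.93) just outside.

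Annotated starts of members were rich in CpG whether or not Myc was found at them. A summit lay within 1 kb of 143 of the 271 starts (52.8%), against 55.3% over all protein-coding genes. The median number of CpG dinucleotides in the 300 bp was 22 at member starts with a summit and 18.5 at those without, against 27 and 8 over all genes. Of the member starts without a summit, 109 of 128 (85.2%) held at least 10 CpG, against 44.8% over all genes. With 20 to 29 CpG, 69 of 109 member starts had a summit (63.3%, 53.9 to 71.8), against 74.8% (69.7 to 79.2) of other starts on chromosome 19. With 10 to 19 CpG, the shares were 49.0% (39.4 to 58.7) and 49.1% (43.1 to 55.0). With 30 or more they were 52.6% (37.3 to 67.5) and 71.8% (66.9 to 76.3), and under 10 they were 20.8% (9.24 to 40.5) and 19.5% (15.7 to 24.1). ZNF starts of other chromosomes had 10.6%, 70.3%, 79.3% and 84.3%, from the lowest bin to the highest.

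Starts in cluster 4 held fewer CpG than those of the other clusters, and starts in cluster 6 did not. The median start held 10 CpG in cluster 4 and 21 in cluster 6, and between 16.5 and 26 in the other 7 clusters. Clusters 4 and 6 were set apart for their low shares, so a lower share in them within bins of CpG was largely fixed by that choice. At 10 to 19 CpG, 6 of 37 starts in clusters 4 and 6 had a summit (16.2%, 7.65 to 31.1), against 41 of 61 in the other clusters (67.2%, 54.7 to 77.7). At 20 to 29 CpG, 6 of 22 did (27.3%, 13.2 to 48.2), against 59 of 81 (72.8%, 62.3 to 81.3). No start of cluster 4 held more than 18 CpG, so those of clusters 4 and 6 with 20 or more were all from cluster 6. The intervals overlapped under 10 CpG, with 1 of 11 (9.09%, 1.62 to 37.7) against 3 of 11 (27.3%, 9.75 to 56.6), and at 30 or more, with 1 of 5 (20%, 3.62 to 62.4) against 18 of 30 (60.0%, 42.3 to 75.4). These intervals, like those by CpG above, treat starts as independent. Some starts share a summit, among them starts of ZNF875 in the 20 to 29 bin and those of ZNF146 and ZNF565. The start of ZNF567 printed above, with 35 CpG, was 440094 bp from the nearest summit.

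**Figure D4:**
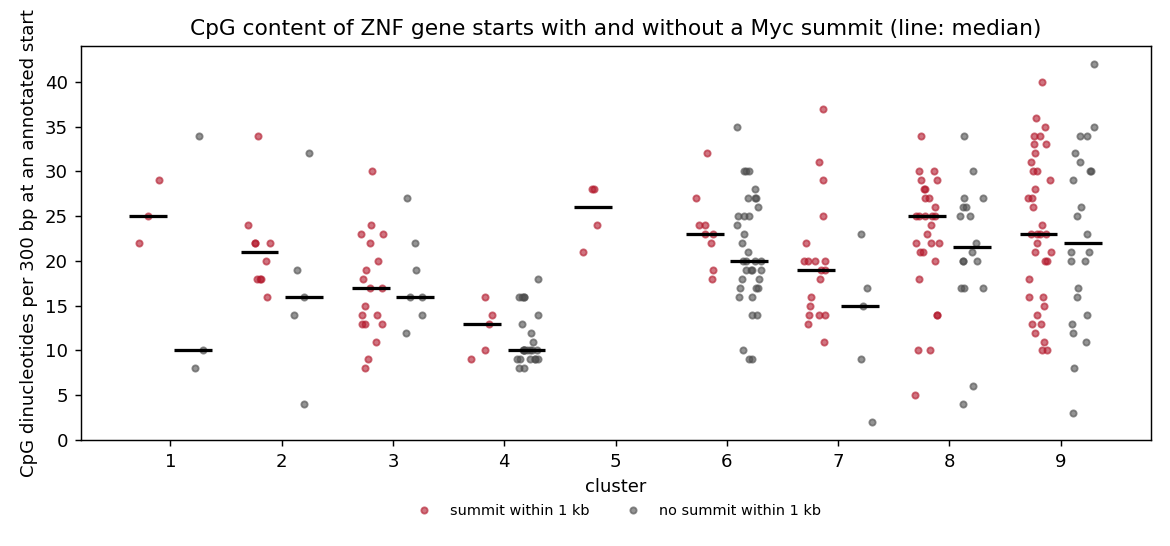
CpG dinucleotides in the 300 bp around each annotated ZNF gene start (y axis, count) by cluster (x axis), for starts with a Myc summit within 1 kb (left points) and without (right points), with medians as lines. In cluster 6 the 36 starts without a summit have a median of 20, close to the 23 of the 9 with one, and the starts of cluster 4 lie low, at medians of 10 and 13.

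The E-box was rare in the 300 bp searched at member starts. That sequence ends 50 bases past the start, while the strongest summits lay at a median of 116 bp past the 5′ end. The sequence under most summits was therefore not examined, and an E-box there would be missed. CACGTG, which reads the same on both strands, was found in 12 of 271 member starts (4.43%), against 8.34% over all starts of protein-coding genes. It was found in 9 of the 143 member starts with a summit (6.29%) and in 3 of the 128 without (2.34%). Over all genes it was found in 10.1% of starts with a summit and 6.16% of those without. None of the 30 starts of cluster 4 held it. The median fold at the 9 was 13.6 with a range of 3.31 to 34.0, against 6.75 at the other 134 starts with a summit, with a range of 2.5 to 34.0. ZNF460 is the top of both ranges, because a second annotated start without the E-box lies near the same summit. In the 5 sequences shown first, the E-box began 95 bases before the start in ZNF460, 90 in ZNF324, 50 in ZNF587B, 45 in ZNF814 and 42 in ZNF587. The summits of those 5 lay past the start, between 158 bp from the E-box in ZNF587B and 196 bp in ZNF460. At an inner start of ZNF331, by contrast, the E-box lay 6 bp from a summit with a fold of 5.36 (4.14 to 6.82). At the remaining E-box starts with a summit, in ZNF565, ZNF507 and ZNF296, the E-box lay 338, 340 and 822 bp from the summit. Their folds were 31.9 (the peak of ZNF146), 17.4 and 5.15. The related motif CACGCG was found in 14.8% of member starts, against 14.3% of all, and CATGTG in 6.27%, against 8.93%, both strands counted.

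CCGGAA and ATTGG were found in more member starts than in starts of any other set compared. CCGGAA, on either strand, was found in 139 of 271 member starts (51.3%), against 21.2% of all starts, 21.5% of other starts on chromosome 19 and 38% of starts of ZNF genes elsewhere, and about equally with a summit (52.4%) and without (50%). It reached 24 of 30 starts in cluster 4 (80.0%), with few summits, and 38 of 61 in cluster 9 (62.3%), with many. ATTGG, the core of the CCAAT box read on the other strand, was found in 49.8%, against 34.7% of all, 35.6% of other starts on the chromosome and 39.0% of ZNF starts elsewhere. The GC box GGGCGG was found in 64.9% of member starts, against 56.3% of all and 65.9% of other starts on the chromosome. CATGCG was found in 9.23%, against 7.91% and 9.55%, and ATGGCGGC, a core of YY1 sites, in 4.06%, against 3.91% and 5.56%, of the same 2 sets. A core of the ZNF143 motif was found in 3 member starts, all with a summit, as had all 68 starts that hold it over all genes (0.306% of starts). Overlaps between motifs were not removed.

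Similar starts could differ in their peak. Each member start was aligned with those of other members that lie 300 bp or more away, which leaves out readthrough genes with the same start, and the best match had a median identity of 67.0% over the 300 bases, with a maximum of 91.3%. For 175 of 271 starts the closest match lay in the same cluster. ZNF587B and ZNF814, at 91.3% identity, both hold the E-box and CCGGAA, with summits 111 bp past the start of ZNF587B and 144 bp past that of ZNF814, which is an inner start of its gene. The fold was 3.31 (2.17 to 4.86) at ZNF587B and 13.6 (10.9 to 16.9) at ZNF814, intervals that did not overlap. ZNF587, which shares 67.7% of the 300 bases with ZNF814, had 20.8. Between printed starts of different clusters, identity ran from 58.7% (ZNF814 and ZNF90) to 66.0% (ZNF324 and ZNF567). Best matches near these levels therefore need not mark likeness. In cluster 4 the median best identity was 83.8%, against 65.3% in cluster 6 and 67.3% in the other clusters. ZNF714 and ZNF431 were 91.0% identical and both had a summit, while ZNF486, at 85.0% identity to ZNF431, had its nearest summit 390992 bp away. How reads that match several copies were placed is not given in the sources used here, so values at such copies are uncertain, and their part in the low share of cluster 4 was not tested.

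Listed genes of partners of KRAB zinc finger proteins and of related proteins had end peaks in 24 of 26 cases (92.3%, 75.9 to 97.9). The share was 56.4% over all genes, and the median fold of the listed genes was 8.80. TRIM28, which binds the KRAB domain and itself lies on chromosome 19 beyond cluster 9, had 14.3 (11.5 to 17.5). SETDB1 had 6.56 (4.72 to 8.91) and its cofactor ATF7IP 9.71 (7.58 to 12.2). Among the genes of heterochromatin proteins that read the methyl mark, CBX5 had 36.1 (31.7 to 41.0), from an end shared with HNRNPA1, CBX3 had 13.2, shared with HNRNPA2B1, and CBX1 had 7.64. The histone methyltransferase genes SUV39H2, EHMT2, SUV39H1 and EHMT1 had 21.8, 11.3, 5.42 and 5.37. Of the HUSH complex, which silences transposable elements, MPHOSPH8 had 14.6, TASOR 9.07 and PPHLN1 8.32, and the ATPase genes MORC2 and MORC3 had 10.7 and 4.43. The remodeller genes SMARCAD1, ATRX and CHD4 had 16.6, 9.19 and 8.53, and the histone chaperone gene DAXX 10.2. TRIM24 and TRIM33, relatives of TRIM28, had 8.03 and 7.34, and the deacetylase genes HDAC1 and HDAC2 7.13 and 5.96. The DNA methyltransferase gene DNMT1 had 8.53 (6.40 to 11.2). Peaks of EHMT2, MORC2, DAXX, PPHLN1 and HDAC1 also lay near ends of C2, TUG1, ZBTB22, ZCRB1 and MARCKSL1. UHRF1 and CHD3 were the 2 without an end peak, at 6616 and 2978 bp from the nearest summit. These genes lie on several chromosomes, and their share is given beside that of the ZNF genes as a description. The list was chosen with earlier results of these data known. The genes it was compared with were not matched to it for CpG content or expression.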

How the data were processed

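Libraries were grouped by title (3 Myc, 3 IgG, 1 input). The submitters' processing notes name hg38 and, without roles, BWA 0.7.15, deepTools 3.5.0, FastQC 0.11.7, HOMER 4.11.1, MACS2 2.1.2, Picard 2.19.0 and SAMtools 1.5. Not given in the sources used here are their settings, the control, how replicates were joined and how duplicates were treated. The authors deposited 1 list in narrowPeak format, with a fold (a ratio, pileup + 1 over control + 1) per summit. The −log10 of p and q and a score made from q were also deposited per peak; the lowest −log10 q was 1.30.

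From the deposited values, whole-number pileups were recovered by solving the fold and the −log10 p together, within 0.001, for 47016 of 47016 peaks on nuclear chromosomes (2333 on chromosome 19). Both this step and the gene counts were tested on simulated data. Gene ends came from RefSeq GRCh38.p14, whose chromosome sequences are those of hg38; positions are counted from 1. Named members were the 10 highest folds at unshared ends, the highest of each cluster, the 5 highest interior folds, the 5 longest with no summit, those nearest the 1 kb limit and the listed partners; others were chosen after their values were seen. The members, lists and rules were chosen with earlier results of these data known. Protein sequences were not used here. Analyses used Python 3.11.15, numpy 2.4.6, scipy 1.17.1 and pandas 2.3.3.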

Additional observations from a re-analysis of the deposited data

How the results depend on the processing

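No paired analysis was possible because the list holds no value per library, and leaving out a replicate could not be done for the same reason. Clusters 4 and 6 stayed below every other cluster in all 13 settings that kept the clusters, the reported one included, with shares of 10.8% to 18.9% and 11.5% to 29.4%. The gap between the highest and the lowest cluster, 58.8 percentage points as reported, was 82.8 when any start of the promoter table was counted in place of the gene ends, a setting chosen after the data were seen. In that setting 57.5% of members with such a start were called, against 60.1% of all genes. With peaks of fold 4 or more, end peaks were found in 42.8% of members against 50% of all genes, 5′ peaks in 42.9% of those with strand, and body peaks in 39.6% against 46.8%. Counting any overlap of the peak interval, body peaks were found in 57.2% against 67.7%. The members' end-peak share, below that of all genes as reported, was above it with a window of 500 bp (48.4% against 47.9%) and without wide and top peaks (43.6% against 41.4%). Members with summits at both ends numbered 5 of 250 with a window of 2 kb (9.92% of all genes), 24 with 5 kb (18.3% of all genes), 1 with 500 bp (2.44% of all genes), 0 without members with a shared end and 1 when the top 1% by fold and all peaks over 2 kb wide were dropped (2.95% of all genes). In that last setting the partner genes had 61.5%, against 41.4% of all genes. Members with a 3′ summit, 3 of 219 as reported, numbered 7 with a window of 2 kb, 30 with 5 kb, 5 by overlap of the peak interval and 1 of 180 without shared ends. Shares over all genes were not taken for these. The fold of ZNF628 was 5.91 without wide and top peaks, and that of ZNF296 was 11.8 with 5 kb. Each shift came with a changed rule on the same list, and what in the list lies behind it was not tested. The other 77 values of the main results, taken for the members or the partner genes alone, stayed within their interval or within 1.5 times. Depth limits the list to pileups of 14 or more, and intervals cover counting error only.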
